A study of Bos taurus with 3 samples.

Results

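The ubiquitin pathway enzymes studied here are the genes whose symbol, as the authors' descriptions give it, begins with UBE and a digit from 1 to 4, USP and a digit, UCHL, OTU, CUL and a digit, FBXO, FBXW or FBXL, or is UBA1 to UBA7. The rule used names alone and no measured value, and it found 101 of the 9154 genes listed in at least 1 of the 3 libraries. They comprise 6 E1 activating enzymes, 22 E2 conjugating enzymes, 4 ligases (UBE3A, UBE4A, UBE4B and UBE2CBP, which RefSeq names UBE3D), the cullin CUL2, 39 F-box proteins (13 FBXL, 4 FBXW and 22 FBXO), 22 ubiquitin-specific proteases (USP) and 7 deubiquitinases of the UCHL and OTU families.

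Mammary tissue was taken by biopsy from 18 Holstein cows in the second parity, 6 at each of 3 time points relative to parturition: −35 d (dry period), −7 d (stage I of lactogenesis) and +3 d (stage II, when colostrum is made). The labels name no treatment, and each time point has its own cows. RNA was isolated from the pooled tissue of the 6 cows, and each pool gave 1 digital gene expression (DGE) library, so that the spread among cows was not measured. DGE counts short tags beside the CATG sites of a transcript. In principle a single site gives the tag, but the paper reports tags from other sites as well. A gene's count can therefore depend on its number of sites. Levels are given as TPM, tags per 1000000 clean tags of the library.

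Ubiquitin is a small protein that is joined to other proteins in steps. An E1 enzyme activates it, an E2 enzyme carries it, and an E3 ligase brings the E2 to the substrate; in the SCF ligases a cullin is the scaffold and an F-box protein binds the substrate. Chains of ubiquitin send proteins to the proteasome or alter their signalling and trafficking, deubiquitinases remove them again, and related modifiers such as NEDD8, SUMO, UFM1 and ISG15 have E1 and E2 enzymes of their own. In the mammary gland, as in other tissues, the system controls cell division, protein quality in the endoplasmic reticulum and the turnover of receptors.

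The libraries held 5914422, 5593237 and 5845821 clean tags in time order, and values below are in the same order (−35 d, −7 d, +3 d). In at least 1 library 5 genes held over 1% of the clean tags each (CSN1S1, CSN2, CSN3, CSN1S2 and PAEP), and together they held 0.348%, 4.13% and 22.6% of the clean tags of the libraries. Stage I below means −7 d set against −35 d, stage II +3 d against −7 d, and the whole period +3 d against −35 d. The 5902 genes whose mean reached 5 TPM had a median log2 ratio (later over earlier library) of −0.16 in stage I, −0.34 in stage II and −0.52 over the whole period. TMM scaling, which centres the ratios of most genes near 0, added 0.19, 0.31 and 0.50 to the log2 ratios, and ratios of single members are given after TMM scaling as well, since a ratio near 0 can change sign with it. Of 13 luminal epithelium markers, 11 were measured and none was at 0 in any library, with KRT8 at 297, 157 and 164 TPM and CSN2 at 735, 12496 and 64463 TPM. Of these markers 2 were called up and 4 down in stage I, 3 up and 1 down in stage II, and 3 up and 2 down over the whole period, by the test given next; after TMM scaling the counts were 2 up and 2 down, 4 up and 0 down, and 3 up and 0 down.

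A member was called differentially expressed in a pair of libraries when the exact Audic-Claverie test, which asks whether 2 tag counts differ by more than Poisson error, gave a Benjamini-Hochberg adjusted p (over all genes tested) of at most 0.001 and the log2 ratio was at least 1 in size. With 1 library per time point, this test compares libraries and not the physiological states, and no difference has a replicate check. Values in parentheses after a log2 ratio are 95% confidence intervals, which cover counting error only, because each time point has 1 library. PCR copies of a tag are not independent molecules, so the intervals can be too narrow even for that error. In whole tissue, fewer cells of a type and less RNA per cell cannot be told apart.

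Of the 101 members, 91 had tags in all 3 libraries, 2 in 2 libraries and 8 in 1 library. The mean over the libraries reached 5 TPM for 72 members and 50 TPM for 11. Listed members had a median of 20.2, 17.2 and 13.8 TPM, compared with 13.9, 12.9 and 10.4 for all listed genes. Together the members gave 16107, 13609 and 10516 tags, or 2723, 2433 and 1799 TPM. The sum over the whole period had a log2 ratio of −0.60 (−0.63 to −0.56) on the clean tag totals and −0.10 after TMM scaling.

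**Figure D1:**
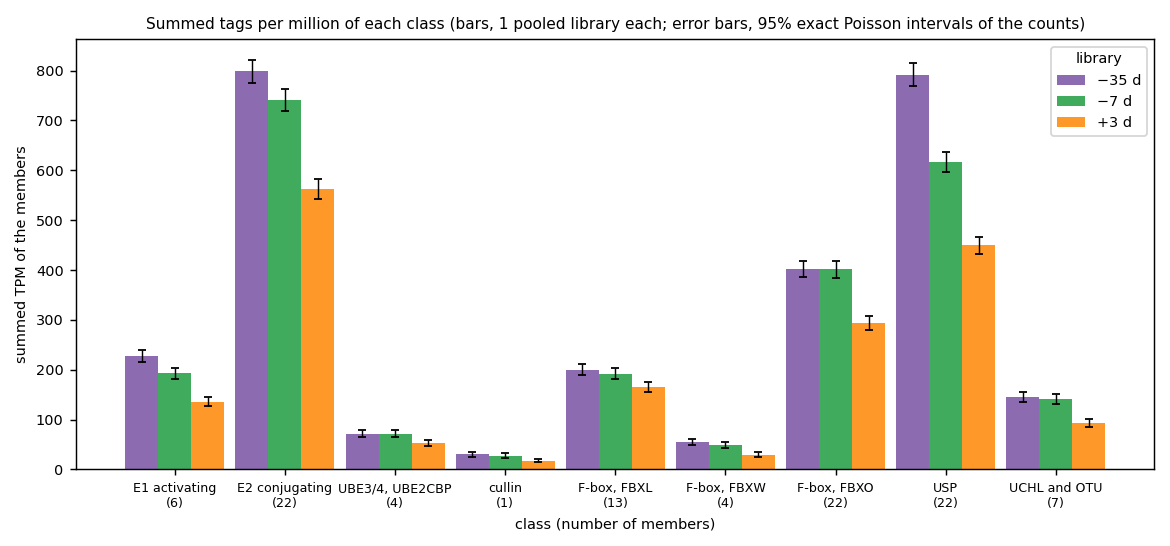
Summed TPM of the members of each class (x axis, with the number of members) in the 3 pooled libraries, 1 bar per library, with 95% exact Poisson intervals of the counts. The E2 and USP classes hold the most tags, and the +3 d bar is the lowest in every class.

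The E2 enzymes summed to 798, 741 and 562 TPM, and the USP class to 792, 617 and 449.6 TPM. In the USP class a single gene, USP22, held 46.2%, 43.9% and 32.5% of the tags. With USP22 left out, which was decided on with its values known, the USP sum was 426, 346 and 303 TPM. Over the whole period, the log2 ratio of the USP sum was −0.82 with USP22 and −0.49 without it. After TMM scaling it was −0.32 and 0.01. The ratio stayed below 0 with either change alone and came near 0 only with both. The sum of the F-box FBXO class was 403, 401 and 294 TPM, and that of the FBXL class 200.4, 192 and 165 TPM.

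Stage I was assessed by the comparison of −7 d with −35 d. Here 5 of the 99 members tested were called, 1 upregulated (FBXL2) and 4 downregulated (UBA3, UBE2L6, UBE2H and USP28). Among all 8967 genes tested, 9.07% were called (2.62% up and 6.45% down), compared with 5.05% of the members. After TMM scaling 6 members were called, 2 up and 4 down, against 8.12% of all genes (4.22% up and 3.9% down); UBE2S was the additional one. The 72 members whose mean reached 5 TPM had a median log2 ratio of −0.19, with quartiles of −0.49 and 0.06, beside −0.16 for all genes, and after TMM scaling 0.00 beside 0.03.

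Stage II was assessed by the comparison of +3 d with −7 d. Of the 98 members tested, 7 were called, 2 upregulated (FBXO10 and USP28) and 5 downregulated (UBE2N, USP1, FBXW7, FBXL14 and UCHL3). Among all genes 13.5% were called (3.12% up and 10.4% down), and among the members 7.14%. The share of higher and lower calls moved with the scaling. After TMM scaling 3 members were called up (FBXO10, USP28 and UBE2L6) and 2 down (UBE2N and USP1), against 5.87% and 4.9% of all genes. The median log2 ratio of the 72 members was −0.47, with quartiles of −0.68 and −0.11, beside −0.34 for all genes, and after TMM scaling −0.16 beside −0.03.

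Over the whole period (+3 d with −35 d), 18 of 98 members were called, 3 upregulated and 15 downregulated. This was 18.4% of the members, beside 18.6% of all 8988 genes tested (2.33% up and 16.3% down). After TMM scaling 6 of these members were still called, 3 up (FBXO10, USP20 and FBXL22) and 3 down (UBE2N, USP1 and USP14), or 6.12% of the members beside 11.2% of all genes (6.23% up and 4.94% down). The other 12, all downregulated, were UBA1, UBA3, UBA6, UBE2D3P, UBE2E3, UBE2H, FBXL4, FBXL12, FBXW7, USP8, USP22 and OTUB1. The median log2 ratio of the 72 members was −0.51, beside −0.52 for all genes. Of these members 77.8% differed by less than 2-fold, beside 73.4% of all genes, and after TMM scaling 91.7% beside 83.9%. The 3 comparisons share libraries, so their counts are not independent.

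**Figure D2:**
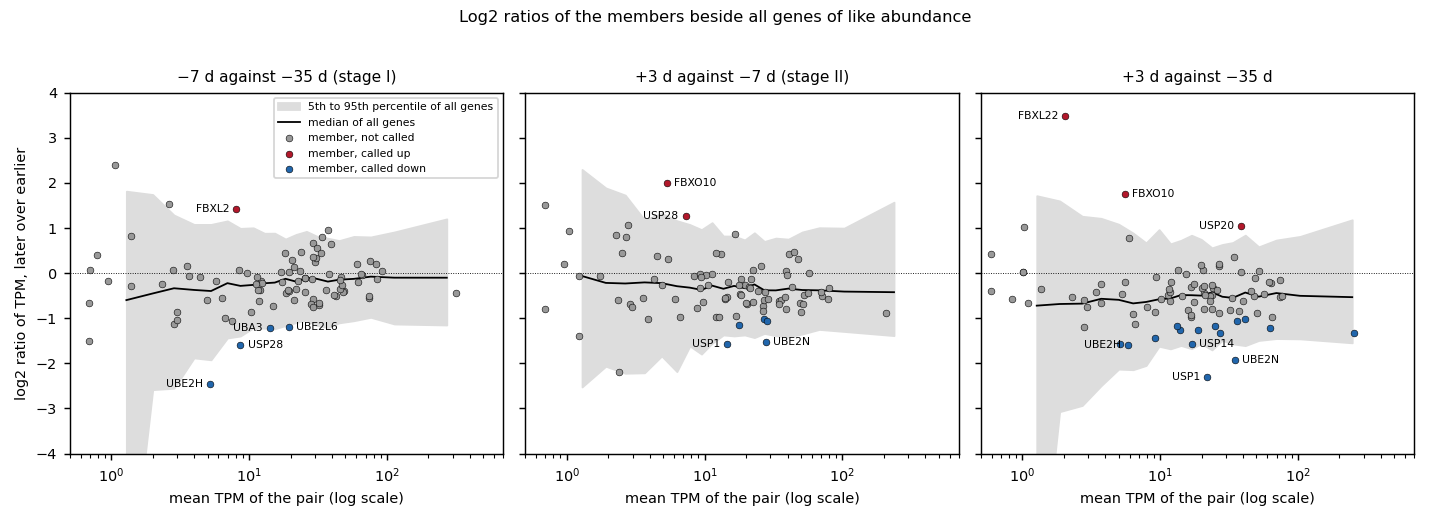
Log2 ratio of TPM (y axis, later over earlier library, drawn from −4 to 4) against the mean TPM of the pair (x axis, log scale) for the members with tags in both libraries (points; the larger changes are named), with the median (line) and the 5th to 95th percentile (band) of all genes in bins of mean TPM, where 0 TPM was set to 0.01. Most members lie within the band and near the line; USP1 and UBE2N lie below the line in both comparisons with +3 d, where FBXO10 lies above the band.

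Among the E1 enzymes, UBA1, which activates ubiquitin for most E2 enzymes, was measured at 87.6, 60.3 and 37.8 TPM. Its level was highest in the dry period and lowest after parturition. The log2 ratio over the whole period was −1.21 (−1.45 to −0.98), with an adjusted p of 1.68e-26 by the Audic-Claverie test, but after TMM scaling it was −0.71 and the gene was not called. UBA6, the other E1 enzyme for ubiquitin, was at 13.4, 7.33 and 4.96 TPM and was also called downregulated over the whole period (−1.43, interval −2.10 to −0.80, adjusted p = 6.19e-06), again without a call after TMM scaling (−0.93).

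UBA3 is the catalytic subunit of the E1 enzyme for NEDD8, the modifier that switches on the cullin ligases. It had 19.8, 8.58 and 8.21 TPM, so that the −35 d library stood above the others. UBA3 was downregulated in stage I, with a log2 ratio of −1.20 (−1.72 to −0.71) and an adjusted p of 2.86e-06, and after TMM scaling as well (−1.01). Its ratio in stage II was −0.06 (−0.67 to 0.54) on the clean tag totals and 0.24 after TMM scaling, and over the whole period it was −1.27 (−1.78 to −0.77), called on the clean tag totals but not after TMM scaling (−0.77). Of the E2 enzymes of the NEDD8 pathway, UBE2M was at 66.3, 64.9 and 47.9 TPM and UBE2F at 24.0, 21.3 and 17.8 TPM, and neither was called in any pair. CUL2, the scaffold of the von Hippel-Lindau ligase and the single cullin of the set, was at 30.1, 27.4 and 17.5 TPM, with a ratio of −0.79 (−1.15 to −0.43) over the whole period, −0.29 after TMM scaling, and no call.

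UFC1, the E2 enzyme for UFM1, was at 72.4, 77.2 and 66.2 TPM and was not called in any pair. For SUMO, the E1 subunit UBA2 was at 20.3, 22.2 and 11.5 TPM, without a call, whereas SAE1, the partner subunit of UBA2, was downregulated, with 20.3, 11.8 and 4.79 TPM and a log2 ratio of −2.08 over the whole period (adjusted p = 8.7e-14, and −1.58 after TMM scaling, called).

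ISG15 is a modifier induced by interferon, and UBE2L6 is its E2 enzyme. UBE2L6 had 27.1, 11.8 and 21.6 TPM, lowest at −7 d, and the ratio of the outer libraries was −0.33 (−0.68 to 0.02), or 0.17 after TMM scaling. It was downregulated in stage I (−1.20, interval −1.63 to −0.77, adjusted p = 3.32e-08; −1.01 after TMM scaling). In stage II the ratio was 0.87 (0.43 to 1.32), with an adjusted p of 0.000208 but less than 2-fold, and after TMM scaling it was 1.18 and called. UBA7, the E1 enzyme for ISG15, was at 18.6, 11.3 and 15.1 TPM and was not called, and USP18, which removes ISG15, had 2 tags in each library. ISG15 itself was at 25.0, 15.0 and 36.1 TPM and was upregulated in stage II (1.27, adjusted p = 9.88e-12; 1.57 after TMM scaling, called). The 17 measured genes of an interferon response list (of 24) summed to 459, 305 and 383 TPM, with 3 called down in stage I, 5 up and 2 down in stage II, and 3 down over the whole period. After TMM scaling these counts were 1 down, 7 up, and 2 up; OAS2 was not listed at −7 d and +3 d, nor MX2 at +3 d. Of 14 macrophage markers 11 were measured, with a sum of 931, 488 and 705 TPM, 5 called down in stage I, 3 up in stage II, and 2 up and 1 down over the whole period (after TMM scaling 5 down, 5 up, and 3 up and 1 down). The markers did not share 1 pattern: CSF1R (52.1, 22.5 and 54.4 TPM) and CD163 (7.78, 1.97 and 19.8 TPM) were lowest at −7 d, CTSS (432, 151 and 124 TPM) was lowest at +3 d, CD14 (2.87, 4.29 and 19.7 TPM) was lowest at −35 d, and C1QA was at 98.9, 94.2 and 126 TPM. None of the 11 was at 0 in any library. The part of these cells in the UBE2L6 values was not tested.

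Of the 22 E2 enzymes, 2 were called in stage I, 1 in stage II and 4 over the whole period, all of them downregulated, beside 9.07%, 13.5% and 18.6% of all genes; a share near these is no result about the class. After TMM scaling UBE2S, up in stage I, and UBE2L6, up in stage II, were called in addition, and over the whole period UBE2N alone was still called. UBE2N (Ubc13), which builds lysine-63-linked chains for signalling and DNA repair, was the one E2 enzyme called in stage II on the clean tag totals. It had 325, 230 and 84 tags, or 55.0, 41.1 and 14.4 TPM, and the +3 d library was far below the others. The log2 ratio was −1.52 (−1.90 to −1.15) in stage II (adjusted p = 2.46e-17) and −1.94 (−2.30 to −1.58) over the whole period (adjusted p = 9.22e-33). Both calls held after TMM scaling, with ratios of −1.21 and −1.44.

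UBE2V1, the inactive E2 variant that pairs with UBE2N, had one of the highest levels of the E2 class, 87.9, 80.3 and 60.6 TPM. Its ratio over the whole period was −0.54 (−0.74 to −0.34), which was −0.04 after TMM scaling. The interval did not overlap that of UBE2N, but both cover counting error only. OTUB1, a deubiquitinase that binds UBE2N and blocks it, was at 48.5, 34.7 and 23.4 TPM and was called downregulated over the whole period (−1.05, interval −1.35 to −0.75, adjusted p = 3.76e-12), but not after TMM scaling (−0.55).

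UBE2H, an E2 enzyme known for its high level in maturing red cells, had 52, 9 and 17 tags, or 8.79, 1.61 and 2.91 TPM. The −35 d library was above both later libraries, with a ratio of −2.45 (−3.66 to −1.42) in stage I (adjusted p = 3.09e-07) and −1.60 (−2.48 to −0.78) over the whole period (adjusted p = 8.43e-05). The stage I call held after TMM scaling (−2.26), whereas the call over the whole period was lost (−1.10, adjusted p = 0.014). UBE2E3, which works with several RING ligases, was at 39.1, 24.9 and 15.6 TPM, each library below the one before it, and was called over the whole period (−1.33, interval −1.69 to −0.97, adjusted p = 5.02e-14; −0.83 after TMM scaling, not called).

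The UBE2D enzymes, which serve many ligases in their first transfer of ubiquitin, are close relatives whose transcripts could share tags, and such tags were left out by the authors. UBE2D2 had 86.4, 61.2 and 43.8 TPM and UBE2D1 12.9, 11.4 and 11.3 TPM, both without a call, and UBE2D4 had 10.1, 4.83 and 5.99 TPM. The transcript that the files name UBE2D3P, and RefSeq UBE2D3, was at 55.1, 42.2 and 27.4 TPM, a value that is uncertain for this reason. It was called over the whole period just at the limit of 2-fold, with a ratio of −1.01 (−1.29 to −0.73) and an adjusted p of 6.82e-13, and not after TMM scaling (−0.51).

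UBE2G1, an E2 enzyme of the degradation pathway, had the highest mean of the class with 78.3, 89.6 and 71.0 TPM, and its relative UBE2G2, which acts in the disposal of proteins of the endoplasmic reticulum, had 39.6, 24.3 and 27.0 TPM. UBE2J2, anchored in the same membrane, was at 38.4, 38.1 and 39.3 TPM, with a ratio of 0.04 (−0.24 to 0.31) over the whole period, 0.53 after TMM scaling. None of these was called in any pair. Highest at −7 d were UBE2S, which elongates chains for the anaphase-promoting complex, with 25.4, 49.2 and 28.4 TPM, and UBE2K, which builds lysine-48-linked chains, with 24.7, 42.7 and 28.4 TPM. UBE2S had a stage I ratio of 0.96 (0.66 to 1.25) with an adjusted p of 3.15e-10, just short of 2-fold, and after TMM scaling it was 1.15 and called. UBE2Q2 was at 30.3, 47.7 and 38.8 TPM, with a ratio of 0.66 (0.38 to 0.94) in stage I, 0.85 after TMM scaling, and UBE2W at 14.2, 9.30 and 9.24 TPM, neither called. UBE2T, an E2 enzyme of the Fanconi anaemia pathway, was at 8.96, 4.47 and 4.11 TPM, highest at −35 d, and was not called.

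UBE2S is known to act in mitosis, and a list of proliferation genes was followed beside it. Of 25 genes 20 were measured, and they summed to 228, 355 and 60.7 TPM, with 5 called up and 1 down in stage I and 18 called down in stage II and 15 over the whole period. After TMM scaling 11 were called up in stage I, 17 down in stage II and 8 down over the whole period. BUB1B was not listed at −35 d, and BUB1B and MCM5 were not listed at +3 d. The 17 of these genes whose mean reached 5 TPM had median log2 ratios of 0.90, −3.09 and −2.02 in the 3 comparisons. After TMM scaling these were 1.09, −2.78 and −1.52. UBE2S had ratios of −0.79 (−1.08 to −0.51) in stage II and 0.16 (−0.16 to 0.49) over the whole period. These were −0.48 and 0.66 after TMM scaling, without a call. The part of dividing cells in the values of the ubiquitin enzymes was not tested.

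Of the ligases named UBE3 or UBE4, UBE4B, a U-box protein that extends chains, was at 48.2, 45.2 and 31.3 TPM, and UBE3A, the founding HECT ligase, at 15.4, 20.9 and 15.2 TPM. UBE2CBP had 3.72, 3.58 and 2.22 TPM and UBE4A 4.06, 1.97 and 3.42 TPM. All 4 had tags in each library and none was called in any pair under either scaling.

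**Figure D3:**
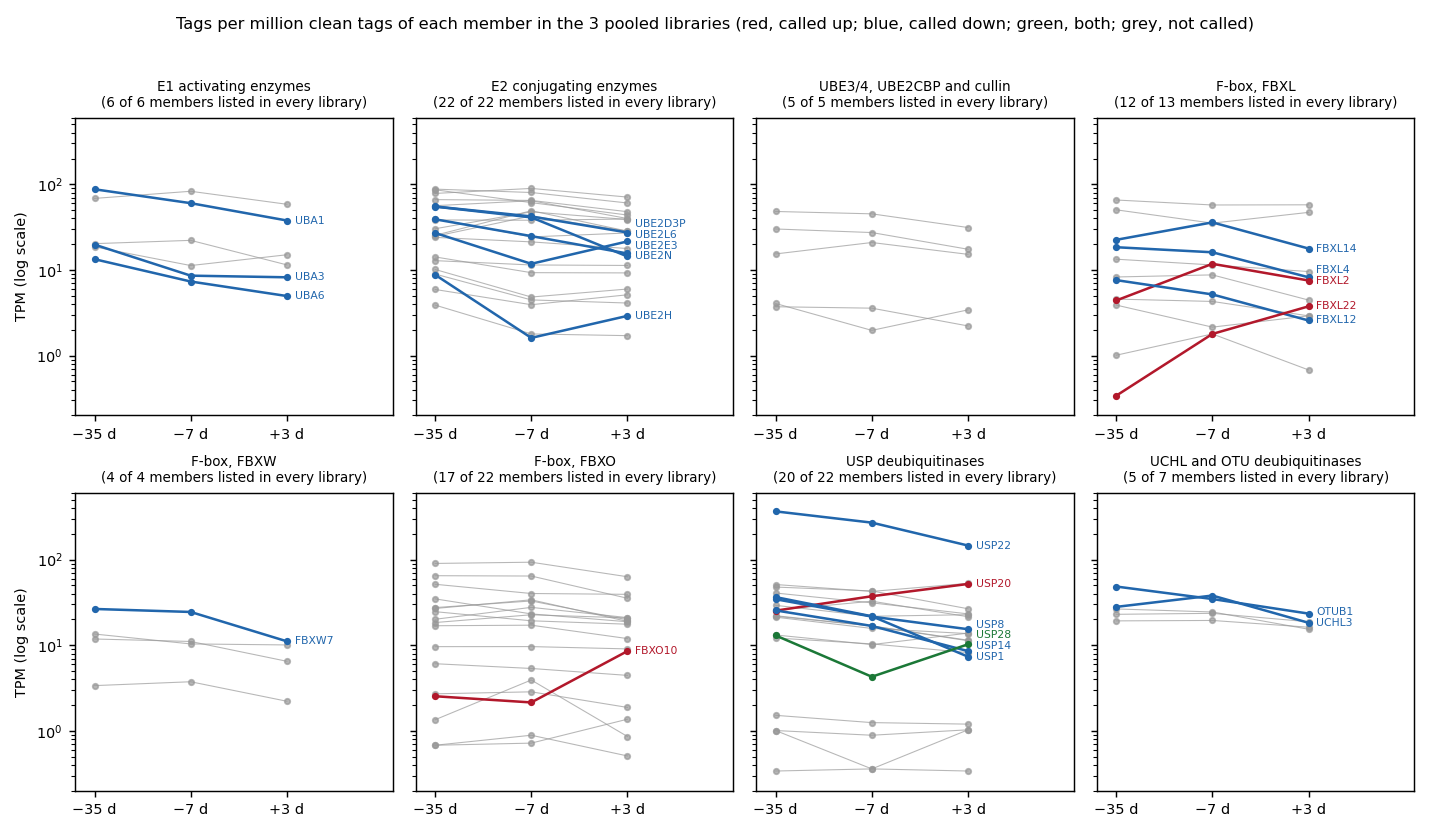
TPM (y axis, log scale) of the members with tags in every library at −35 d, −7 d and +3 d (x axis), 1 line per gene and 1 panel per class; coloured lines are genes called in at least 1 pair on the clean tag totals. USP22 lies above all other members in each library, USP28 and UBE2L6 are lowest at −7 d, and FBXO10 is highest at +3 d.

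F-box proteins choose the substrate of SCF ligases. Of the 39, 1 was called in stage I, 3 in stage II and 5 over the whole period, beside 9.07%, 13.5% and 18.6% of all genes, and after TMM scaling 1, 1 and 2 were called. FBXO10 had 15, 12 and 50 tags, or 2.54, 2.15 and 8.55 TPM, so that the +3 d library was well above the others, whose interval included 0 (−0.24, interval −1.47 to 0.95; −0.05 after TMM scaling). It was upregulated in stage II 3.99-fold, with an interval of 1.07 to 3.04 on the log2 scale and an adjusted p of 8.89e-06, and over the whole period with a log2 ratio of 1.75 (0.90 to 2.69) and an adjusted p of 3.08e-05. Both calls held after TMM scaling (2.30 and 2.25), and FBXO10 was the single member called in stage II with a threshold of 3-fold.

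FBXL22 had 2, 10 and 22 tags (0.340, 1.79 and 3.76 TPM), each library above the one before it. With only 2 tags in the dry period the size of the difference was poorly known: the ratio over the whole period was 3.48 (1.45 to 6.61), with an adjusted p of 6.21e-05, and the call held after TMM scaling (3.97). FBXL2 had 26, 66 and 44 tags, or 4.40, 11.8 and 7.53 TPM, highest at −7 d. It was the member upregulated in stage I (1.42, interval 0.75 to 2.14, adjusted p = 4.58e-05; 1.61 after TMM scaling).

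FBXW7, which directs cyclin E, MYC and NOTCH proteins to degradation, was at 26.6, 24.5 and 11.1 TPM. The +3 d library was below the others, with a stage II ratio of −1.14 (−1.59 to −0.70) and an adjusted p of 3.67e-07. After TMM scaling the ratio was −0.83 and the call was lost, as was that over the whole period (−1.26, and −0.76 after TMM scaling). FBXL14, which targets the transcription factor SNAI1, had 22.5, 35.9 and 17.8 TPM, highest at −7 d. Its stage II ratio of −1.01 (−1.37 to −0.67), with an adjusted p of 1.64e-08, was only just past 2-fold, and it was −0.71 without a call after TMM scaling.

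FBXL4, a mitochondrial protein, and FBXL12 were called downregulated over the whole period, with 18.4, 16.1 and 8.21 TPM and 7.61, 5.18 and 2.57 TPM. Their ratios were −1.17 (−1.69 to −0.66) and −1.57 (−2.52 to −0.70), with adjusted p of 5.5e-06 and 0.000341, and neither call held after TMM scaling (−0.67 and −1.07; adjusted p = 0.0277 for FBXL12).

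Several abundant F-box genes were not called in any pair. FBXO9 was at 90.3, 93.3 and 63.1 TPM, FBXO25 at 64.9, 64.4 and 35.4 TPM, and FBXL5, which degrades an iron regulatory protein, at 65.6, 57.4 and 57.7 TPM. FBXL5 had a ratio of 0.01 (−0.22 to 0.23) in stage II, 0.31 after TMM scaling, and FBXO25 one of −0.86 (−1.12 to −0.61), −0.55 after TMM scaling. FBXW2, FBXW12 and FBXW9 were at 13.5, 10.4 and 10.1 TPM, at 11.8, 11.1 and 6.50 TPM and at 3.38, 3.75 and 2.22 TPM, without a call. FBXO11, FBXO8, FBXO22, FBXO3, FBXO44, FBXO34, FBXO18, FBXO7, FBXO6 and FBXO36 lay between 4.45 and 51.6 TPM in the libraries, FBXL6, FBXL15, FBXL20, FBXL8 and FBXL21 between 0.680 and 13.4 TPM, and none was called.

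FBXO15 had 8, 22 and 5 tags, with ratios of 1.54 (0.32 to 2.92) in stage I and −2.20 (−3.96 to −0.76) in stage II, 1.73 and −1.89 after TMM scaling, wide intervals and no call. FBXO21 had 4, 4 and 8 tags and FBXO17 had 4, 5 and 3. FBXO32 (atrogin-1), a ligase best known from wasting muscle, had 2.71, 2.86 and 1.88 TPM. FBXO28 and FBXO47 were listed only at −35 d, with 6 and 5 tags, and FBXO2 had 5, 3 and 0 tags. FBXO5, FBXO16 and FBXL16 were each listed in a single library with 2 tags. A gene not listed can have up to 3 tags by counting error alone, which is 0.507 TPM at −35 d, 0.536 TPM at −7 d and 0.513 TPM at +3 d, and the authors' removal of single-copy tags raises this limit further. None of these genes was called.

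USP22, the deubiquitinase of the SAGA chromatin complex, had the most tags of all members, 2165, 1513 and 854, or 366, 271 and 146 TPM. Each library was below the one before it. The log2 ratio was −0.44 (−0.53 to −0.34) in stage I, −0.89 (−1.01 to −0.77) in stage II and −1.33 (−1.44 to −1.21) over the whole period, the last with an adjusted p of 1.17e-124 and a call. After TMM scaling it was still below 0 in each pair, with −0.25, −0.58 and −0.83, but under 2-fold and not called.

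USP1, which removes ubiquitin from PCNA and FANCD2 in DNA repair, had the lowest log2 ratio of all members called over the whole period. It had 216, 122 and 43 tags, or 36.5, 21.8 and 7.36 TPM. The ratio was −0.74 (−1.08 to −0.42) in stage I (−0.55 after TMM scaling, not called), −1.57 (−2.10 to −1.06) in stage II (adjusted p = 5.25e-10) and −2.31 (−2.82 to −1.83) over the whole period (adjusted p = 1.95e-27). The calls in stage II and over the whole period held after TMM scaling (−1.26 and −1.81). PCNA was at 68.7, 86.4 and 23.4 TPM and was called downregulated in stage II (−1.88) and over the whole period (−1.55). Both calls of PCNA held after TMM scaling (−1.57 and −1.05). RAD18, a ligase that acts on PCNA, was at 11.7, 8.94 and 3.93 TPM. RAD18 was called downregulated over the whole period (−1.57, adjusted p = 6.17e-06), but not after TMM scaling (−1.07). UBE2A and UBE2B, the E2 enzymes that work with RAD18, had 5.92, 3.93 and 5.13 TPM and 3.89, 1.79 and 1.71 TPM, without a call.

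USP14 and UCHL5 are deubiquitinases that bind the proteasome. USP14 had 25.5, 16.8 and 8.55 TPM and was downregulated over the whole period (−1.58, interval −2.07 to −1.11, adjusted p = 5.34e-12; −1.08 after TMM scaling, still called). UCHL5 had 23.0, 23.6 and 18.8 TPM, a ratio of −0.29 (−0.67 to 0.08), or 0.21 after TMM scaling, and no call. Its interval did not overlap that of USP14, but both cover counting error only. PSMD14, a deubiquitinase that is a subunit of the proteasome lid and not a member, was at 46.5, 37.9 and 14.9 TPM and was downregulated in stage II (−1.35, adjusted p = 1.44e-13) and over the whole period (−1.64), also after TMM scaling (−1.04 and −1.15).

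USP28, which protects MYC and acts in the response to DNA damage, was called in both stages and in opposite directions. It had 77, 24 and 60 tags, or 13.0, 4.29 and 10.3 TPM, so that the −7 d library stood below the others. The ratio was −1.60 (−2.33 to −0.92) in stage I (adjusted p = 2.6e-06) and 1.26 (0.55 to 2.01) in stage II (adjusted p = 0.000626), and both calls held after TMM scaling (−1.41 and 1.57). Both comparisons share the −7 d library, so a low count there would lower the one and raise the other. Over the whole period the ratio was −0.34 (−0.85 to 0.16), or 0.15 after TMM scaling, without a call.

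USP20 was the one USP gene upregulated over the whole period. It had 150, 209 and 304 tags, or 25.4, 37.4 and 52.0 TPM, each library above the one before it. The ratio was 1.04 (0.75 to 1.33), with an adjusted p of 1.03e-12, and 1.53 after TMM scaling, where it was called as well. USP33, its close relative, was at 21.3, 15.7 and 13.7 TPM. Its ratio in the same comparison was −0.64 (−1.06 to −0.22), or −0.14 after TMM scaling. The interval did not overlap that of USP20, but both cover counting error only, and a difference between the genes was not tested.

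USP8, which acts on receptors in endosomes, was at 34.5, 21.6 and 15.4 TPM and was called downregulated over the whole period (−1.16, interval −1.54 to −0.80, adjusted p = 2.42e-10), but not after TMM scaling (−0.67). USP4 had the second highest mean of the class, with 51.2, 42.6 and 52.9 TPM and no call. USP16, a histone H2A deubiquitinase, was at 47.9, 43.1 and 26.7 TPM, USP15 at 40.8, 31.3 and 23.3 TPM, and USP39, a splicing factor without protease activity, at 29.3, 21.8 and 22.8 TPM, all without a call. At the low end, USP9X had 6, 2 and 6 tags, USP12 had 6, 5 and 6, USP50 had 3, 0 and 4, and USP2 was listed only at −35 d with 6 tags. USP10, USP11, USP21, USP3 and USP38 lay between 8.21 and 32.7 TPM, USP27X had 9, 7 and 7 tags, and none of these was called.

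UCHL3, which trims the precursors of ubiquitin and NEDD8, had 28.1, 38.1 and 18.3 TPM, highest at −7 d. It was called downregulated in stage II (−1.06, interval −1.41 to −0.72, adjusted p = 1.56e-09), just past 2-fold, and after TMM scaling it was −0.75 and not called. UCHL1, an abundant protein of neurons, was at 26.6, 24.5 and 15.4 TPM, and OTUD5 at 19.3, 19.5 and 16.3 TPM. Neither was called. OTUB2 and OTUD7B were listed only at −7 d, with 2 tags each.

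**Figure D4:**
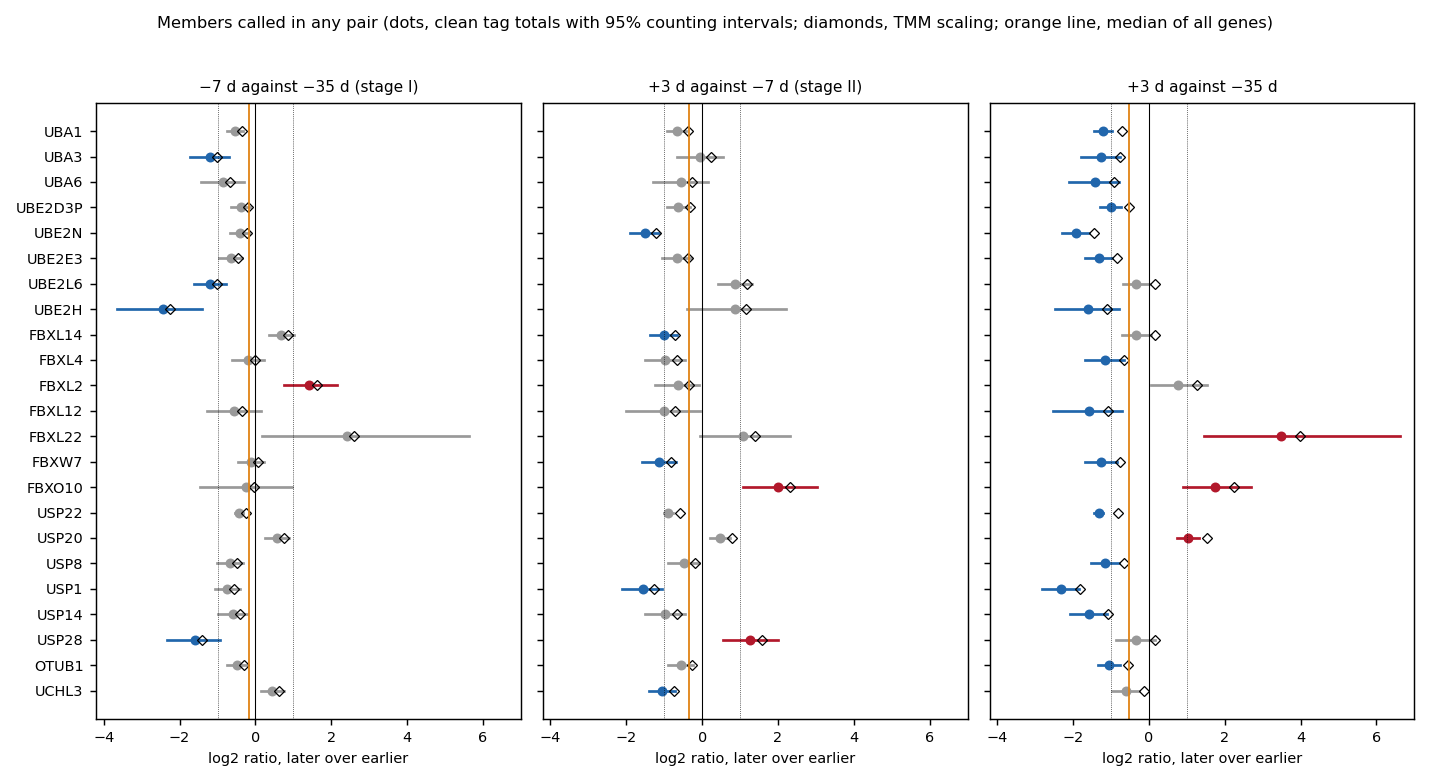
Log2 ratio (x axis, later over earlier library) of the 23 members called in at least 1 pair, 1 panel per pair; dots with lines are values on clean tag totals with 95% counting intervals (red, called up; blue, called down; grey, not called in that pair), diamonds are values after TMM scaling, and the orange line is the median of all genes. In the panel of +3 d against −35 d, USP1 and UBE2N lie farthest below it.

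The genes that work beside these enzymes were followed in lists. The calls of each list, above and below, stand beside 9.07%, 13.5% and 18.6% of all genes in stage I, stage II and the whole period. After TMM scaling these shares were 8.12%, 10.8% and 11.2%. A share near these is no result about a list. Of 20 partners of the SCF and other cullin ligases, 14 were measured, none was called in stage I, and 2 were downregulated in stage II: SKP2, an F-box protein of cell cycle entry, at 24.9, 42.6 and 10.6 TPM (−1.70 after TMM scaling, adjusted p = 4.4e-26 on the clean tag totals), and CCNF, at 3.04, 5.90 and 0.510 TPM. CCNF was called after TMM scaling as well. Over the whole period RNF7, a RING subunit of these ligases at 57.3, 38.8 and 26.3 TPM, and SKP2 were called down, and neither after TMM scaling. Of the 9 subunits of the COP9 signalosome, which removes NEDD8 from cullins, 7 were measured, with a sum of 416, 385 and 268 TPM. COPS7B was called up in stage I (1.33), also after TMM scaling (1.52). COPS4 was called down in stage II and over the whole period (−1.51, adjusted p = 5.5e-40). For COPS4 only the call over the whole period held after TMM scaling (−1.01).

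Of 36 RING and U-box ligases outside the rule, 25 were measured, with 1 called in stage I (MARCH5, down), 1 in stage II (RNF128, down) and 7 over the whole period, all down. After TMM scaling none was called in stage I, 1 in stage II (RNF128) and 1 over the whole period (MARCH5). The 21 whose mean reached 5 TPM had a median log2 ratio of −0.85 over the whole period, beside −0.52 for all genes, and −0.35 after TMM scaling, beside −0.03. Of 22 HECT and RBR ligases, 12 were measured, and HUWE1 (47.0, 77.6 and 31.0 TPM) and RNF14 were called down in stage II, with HUWE1 called after TMM scaling as well (−1.02).

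Of 23 other deubiquitinases and related proteases, 13 were measured. None was called in stage I, JOSD1 (9.13, 6.97 and 15.6 TPM) was up and PSMD14 down in stage II, and PSMD14, STAMBP, SENP7 and ZRANB1 were down over the whole period, of which PSMD14 and STAMBP were called after TMM scaling, with JOSD1 up. YOD1 was not listed at −7 d and +3 d, nor VCPIP1 at −35 d. STAMBP, which acts on endosomes as USP8 does, was at 32.6, 20.7 and 10.6 TPM (−1.62, adjusted p = 1.14e-15; −1.12 after TMM scaling, called). Of 18 ubiquitin receptors and shuttle factors, 14 were measured; SQSTM1 (p62), the receptor that links ubiquitin to autophagy, was at 175, 81.9 and 129 TPM and was called down in stage I (−1.10, adjusted p = 4.21e-43) but not after TMM scaling (−0.91), and FAF2 was called down in stage II, without TMM scaling only. Of 15 modifiers 8 were measured, and besides ISG15 only ATG12, a modifier of autophagy, was called on the clean tag totals, with 31.3, 11.8 and 7.36 TPM and a ratio of −2.09 over the whole period (adjusted p = 6.76e-21; −1.59 after TMM scaling, called). Of 11 activating and conjugating enzymes of other modifiers 7 were measured, and SAE1 was called down in stage II and SAE1 and MOCS3 over the whole period. After TMM scaling only the call of SAE1 over the whole period held.

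The T cell markers, 13 of 15 measured and none at 0, summed to 308, 196 and 186 TPM, with 3 called down in stage I and 1 in each direction in stage II, and 4 down over the whole period; after TMM scaling these counts were 3 down, 1 up and 1 down. The adipocyte markers, 6 of 7 measured, summed to 208, 137 and 281 TPM, with PLIN4 not listed at −7 d and +3 d, 1 called down in stage I and 1 up in stage II; after TMM scaling 0 were called in stage I, and FABP4 was called up in stage II and over the whole period. FABP4 (153, 91.4 and 244 TPM) held most of this sum, and CIDEC (25.0, 26.3 and 15.6 TPM) was lowest at +3 d. The endothelial markers, 7 of 8 measured and none at 0, summed to 113, 85.3 and 131 TPM, with CLDN5 called up in stage II and KDR down over the whole period, where after TMM scaling CLDN5 was called up and KDR was not called. The macrophage, interferon, endothelial and adipocyte sums were lowest at −7 d, though CTSS and KDR were lowest at +3 d. Of the 4 members called down in stage I, USP28, UBE2H and UBE2L6 were lowest at −7 d too. A call down in stage I favours a low value in that library, so no link is drawn from this match. UBE2H had 9 tags at −7 d and 17 at +3 d, and was not called in stage II (0.85, interval −0.39 to 2.20, 1.16 after TMM scaling). The part of cell composition in these values was not tested.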

How the data were processed

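DGE libraries of 3 pools of bovine mammary tissue (6 cows each) were analysed. From tags of 21 bases (CATG and 17 bases), the authors removed adaptors, tags with N, tags of the wrong length and single-copy tags, and matched the rest to transcripts of the bovine genome UMD 3.1 with up to 1 mismatch; tags of several genes were left out. The counts deposited by the authors are unambiguous clean tags per gene and copies per distinct tag. The TPM values deposited by the authors are gene counts per 1000000 clean tags, and counts divided by the summed copies differed from them by at most 0.0050 TPM. The aligner is not given in the sources used here. The removal of single-copy tags lowers scarce genes, and pooling hides the spread among cows.

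Gene tables were joined by accession with 0 for a gene not listed. Symbols came from the authors' descriptions; 96 of 101 accessions matched RefSeq (ARS-UCD2.0), used for names only, and 4 symbols differed. For the two-sided Audic-Claverie p the smaller tail was doubled; p was adjusted by Benjamini-Hochberg over every gene with a tag in either library, with the thresholds of the study's methods (adjusted p of at most 0.001, at least 2-fold), and 0 TPM was set to 0.01. Intervals (95%) came from exact binomial limits, and no ratio is given for a gene with 0 tags or with at most 3 tags in both libraries. The depth limits a count of 0 to 3 tags. The test was run on Poisson counts simulated from the real gene means with known changes put in. These counts have no variation between pools, so the run checks the computation and not the calls. Named genes are every member called in any pair and the 2 members with the highest mean TPM of each class; other members were named after their values were seen, as were genes of the lists. Some genes whose symbols fit the rule are not reported here by name. Members and lists were chosen with earlier results of these data known. Alternatives were TMM (edgeR) and DESeq2 scaling, totals without genes over 1% of a library, Fisher's exact test, an upper tail with the observed count, edgeR's exact test in which the biological variation between pools was set to a coefficient of 0.2 or 0.4, calls from 3-fold, a minimum of 5 TPM (1 TPM for medians) and 0.5 tags added. Tag sequences were not assigned to genes here, and the authors' summary of mapping classes was not used. Scaling was computed in edgeR 4.0.16 and DESeq2 1.42.0 (R 4.3.3); tests in Python 3.11.15 (scipy 1.17.1, numpy 2.4.6, pandas 2.3.3) and plots in matplotlib 3.10.9.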

Additional observations from a re-analysis of the deposited data

How the results depend on the processing

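The number of members called rested most on the assumption that pools vary by counting error alone. When edgeR's exact test was given a biological coefficient of variation of 0.2, it called 0 members in stage I, 0 in stage II and 1 (USP1) over the whole period, beside 5, 7 and 18 by the Audic-Claverie test; with 0.4 it called 0 in each. Of all genes edgeR's exact test called 0.602%, 1.82% and 1.74% with 0.2, and 0.0335%, 0.0911% and 0.156% with 0.4. A member count near these shares is no result about the members. At an unadjusted p under 0.05, edgeR's exact test had 9, 12 and 26 members with 0.2 and 1, 1 and 3 with 0.4. The Audic-Claverie test had 48, 50 and 57. With a mean of at least 5 TPM, it had 40, 47 and 49 of 72 members and 3383, 3764 and 4149 of 5902 genes. The share of all genes at this p was not computed for edgeR's test. Calls from 3-fold left 2, 1 and 5 members, beside 3.5%, 5.0% and 7.3% of all genes. Over the whole period, TMM scaling, DESeq2 size factors and totals without the genes over 1% of a library left the same 6 members. These scalings raise every log2 ratio of the pair, and with DESeq2 size factors FBXL2 was called up in addition, which made 7. The members' median log2 ratio moved from −0.51 to −0.0111 with TMM scaling and to 0.0069 with DESeq2 size factors. Fisher's exact test, the upper tail with the observed count and 0.5 tags added gave 5, 7 and 18 calls as well. Their shares of all genes were 8.91% to 8.98% in stage I, 13.5% in stage II and 18.4% to 18.5% over the whole period. The minimum of 5 TPM gave 5, 7 and 17 calls, beside 11.8%, 19.0% and 25.1% of the genes tested. In the pairs in which a member was called, its direction was the same under each of these alternatives. This outcome was fixed in advance and is no support for the calls. A call needs a log2 ratio of at least 1 in size, and the scalings shifted ratios by less. The other settings kept the ratio, or moved it too little to change its sign. Uncalled ratios near 0 could change sign with the scaling, such as USP28 over the whole period (−0.34, and 0.15 after TMM scaling). No paired analysis was possible because each time point has 1 library, and for the same reason no replicate could be left out. Depth limits the statements on members with few tags, such as FBXL22 with 2 tags at −35 d.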
